A study of Mus musculus with 6 samples.

Results

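The Tat locus was followed in mouse liver as a window of 60 kb on chromosome 8 (mm9, 112480000 to 112540000) that holds the gene and its flanks. Its members were the accessible regions that overlap this window, obtained by merging the hotspots of all 6 libraries where they share at least 1 bp, and they numbered 14 of 75169 regions in the series. A hotspot is a stretch with a local excess of DNase I tags, and so marks DNA that the enzyme could reach. Of the 14 regions, 10 were called in all 6 libraries, against 37044 such shared regions in the series. The series compared livers of C57BL/6 mice fasted for 24 h with livers of C57BL/6 mice fed ad libitum, with 3 libraries each, all collected at 6:00 in the morning under 12-h light and dark cycles. Neither the sex nor the age of the mice appears in the labels, which also do not say that each library came from its own animal, so the spread between libraries may be partly technical. The libraries come from whole liver tissue, in which a change within cells and a change in the mix of cells cannot be told apart. Markers that define liver cells were not analysed here, because no gene annotation of mm9 was given.

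The locus was chosen by its change in tag density between fasted and fed livers, since regions 8 and 12 of the list below are among the highest log2 fold changes of the series (6th and 7th of 37044). The comparison of fasted with fed livers is therefore given as a description, without p-values for single regions, and it is no independent evidence that the locus changed. The window itself was set by position. The first region in it began 12.7 kb inside its lower edge, and the last ended 11.1 kb inside its upper edge. The nearest regions outside lay 99.5 kb below the first member (112391825 to 112393172) and 59.1 kb above the last (112588025 to 112588701). The lower of these was called in all 6 libraries and had a log2 fold change of -0.11 (SE 0.18), and the upper was called in the 3 fed libraries only, at densities of 18.4, 13.9 and 15.3.

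Tat encodes tyrosine aminotransferase, a liver enzyme that takes the amino group off tyrosine in the first step of its breakdown. The carbon skeleton is then passed on by Hpd, Hgd, Gstz1 and Fah to products that can feed the making of glucose and ketone bodies. Tat is a long-studied model of hormone control in liver: glucocorticoids and, through cyclic AMP, glucagon induce it, and in the rat gene the responsible elements lie in several DNase I hypersensitive sites far from the start of transcription. In the GRCm38.p6 gene order of RefSeq, Tat stands between the pseudogene Gm45795 and the long non-coding RNA 1700064F23Rik, with Marveld3 and Chst4 as the nearest protein-coding genes on either side. The files use mm9, for which no annotation was given, so no region is assigned here to the promoter, an exon or an intron of Tat, and none to a neighbour.

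The promoter of Tat is shown because the window was set to hold this gene and because hormone-responsive motifs were looked for in it. The sequence is from RefSeq (GRCm38.p6, plus strand, chr8:109990186-109990485, positions of that build and not of the hotspots) and runs from 250 bases before the annotated start to 50 bases after it, with the transcribed bases in capitals.

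Tat promoter: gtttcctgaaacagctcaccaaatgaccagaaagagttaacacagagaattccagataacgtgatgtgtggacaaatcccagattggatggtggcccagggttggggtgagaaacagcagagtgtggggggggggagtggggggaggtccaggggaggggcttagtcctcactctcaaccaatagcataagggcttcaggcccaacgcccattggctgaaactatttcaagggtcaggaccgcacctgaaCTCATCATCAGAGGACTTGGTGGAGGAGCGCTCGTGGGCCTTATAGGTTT

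Searched on both strands, it held 0 matches to each of 8 motifs. For the glucocorticoid receptor these were the core ACANNNTGT, found in 6.85% of 32851 promoters of the same length, and the shorter TGTTCT, found in 18.97%. For CREB, the factor activated by cyclic AMP, they were TGACGTCA (1.79%) and the shorter TGACG that it contains (20.8%). The others were TTGCGCAA for C/EBP (0.183%), TGTTTAC for forkhead factors (3.65%), CAAAGTCCA for HNF4 (0.475%) and the TATA box letters TATAAA (13.6%). Absence of these letters says nothing about sites elsewhere in the locus, whose mm9 sequence was not given.

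The 3 fasted libraries held 49682 to 63476 hotspots, and the 3 fed libraries 50990 to 63105. The maximum tag density of a hotspot, the value used throughout, came in whole steps of 1 size per library (within 0.05 step for 100% of values). If 1 step is 1 tag, fasted replicate 2 and fed replicate 3 were the deepest, with 1.90 and 1.64 as their depth relative to fed replicate 2, which was the shallowest. On that reading the 10 shared regions of the locus were 26 to 775 tags high, for a counting error of 19.6% at the lowest and 3.59% at the highest value. Log2 fold changes are fasted minus fed on log2(density + 1), with the median over all shared regions set equal in the 6 libraries.

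In the fasted livers 8 of the 10 shared regions of the Tat locus were higher past the threshold of the fit over all shared regions (limma, Benjamini-Hochberg adjusted p under 0.05), where 7.89% of all shared regions were higher. None was lower past the same adjusted threshold (0 of 10), where 7.84% of all shared regions were lower. All 10 log2 fold changes were above 0, so none could be lower at an unadjusted p under 0.05 either. In 9 of the 10 every fasted library stood above every fed library, where 16.8% of all shared regions did so, and in 0 of 10 every fasted library stood below, where 14.6% did so. With densities as deposited, without centring, 1946 of all shared regions were higher and 3189 lower, in place of 2921 and 2905, and 7 of the 10 regions of the locus were higher and 0 lower. Because the locus was picked on this contrast, nothing is read from these counts against the background. The median log2 fold change of the 10 regions was 1.10, with a range of 0.29 to 2.46, beside a median of 0.03 over all shared regions, whose 10th and 90th percentiles were -0.54 and 0.51. Along the window, the fasted libraries had 14, 15 and 16 hotspots that covered 17.6, 21.5 and 16.7 kb in replicates 1 to 3, and the fed libraries 13, 13 and 14 hotspots that covered 12.0, 13.4 and 15.6 kb. Every fasted library thus had more of the window inside hotspots than any fed library, and the part of library depth in this was not tested. The mean density over the covered DNA was 23.8, 22.6 and 21.0 in the fasted libraries, against 13.5, 13.1 and 10.6 in the fed libraries.

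**Figure D1:**
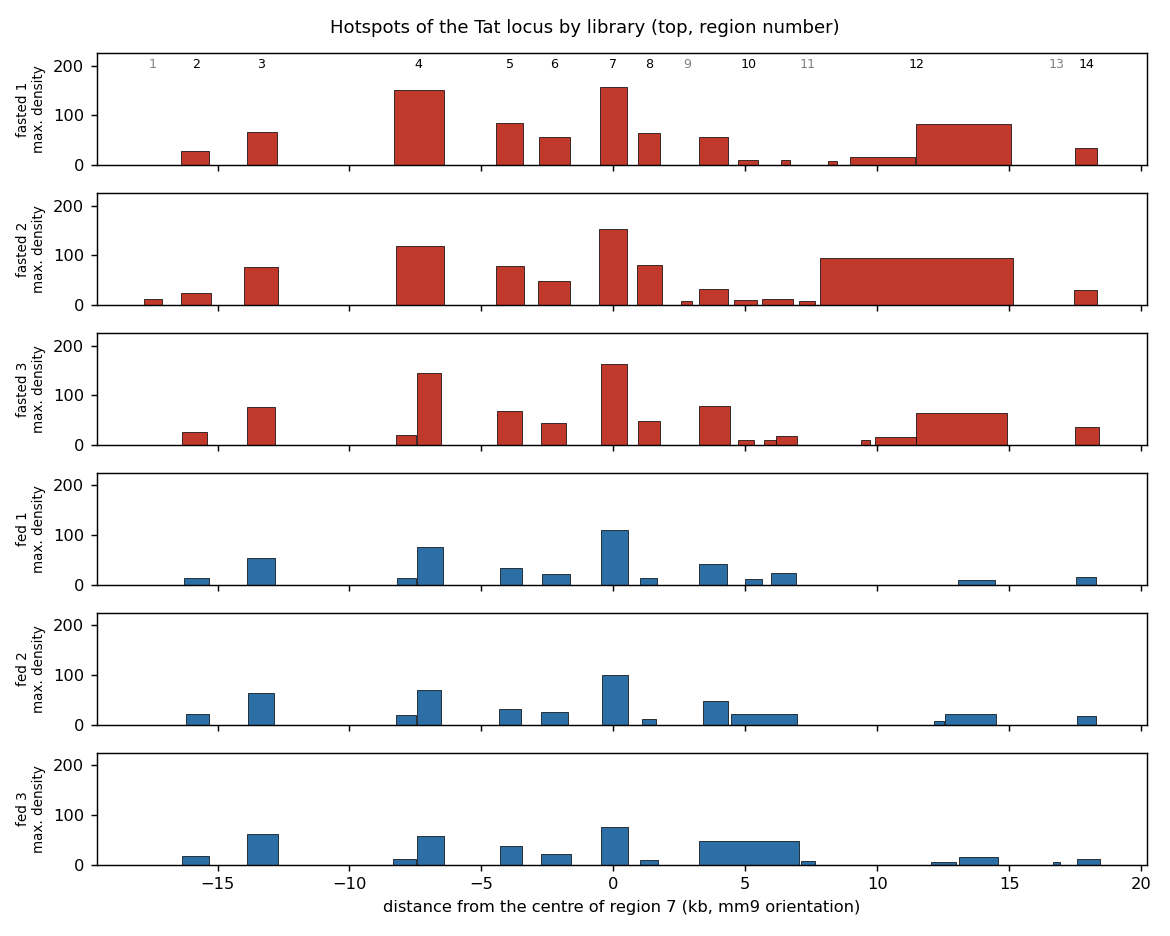
Hotspots of the Tat locus in the 3 fasted libraries (red) and the 3 fed libraries (blue). The horizontal axis gives the distance in kb from the centre of region 7, each bar spans 1 hotspot, its height is the maximum tag density, and the numbers on top name the 14 regions (grey, called in fewer than 6 libraries). In the fasted libraries region 12 is covered over 5327 to 7306 bp, against 1381 to 2382 bp in the fed libraries.

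The regions that differed most between the groups were weak in fed livers. Region 8 (112511344 to 112512303) had densities of 64.1, 80.1 and 49.3 in fasted replicates 1 to 3, against 13.6, 12.0 and 8.70 in fed replicates 1 to 3. The gap between the groups was 1.81 on the centred log2 scale, and the log2 fold change was 2.46 (SE 0.22). Its mean density stood at percentile 83.5 of all shared regions in the fasted livers, against percentile 18.4 in the fed livers. Region 12 (112518303 to 112525608) had densities of 83.7, 95.1 and 65.4 in the fasted libraries, against 9.56, 21.7 and 15.8 in the fed libraries, with a log2 fold change of 2.43 (SE 0.25). The groups did not overlap there either. It stood at percentile 88.8 in fasted livers and 31.6 in fed livers. It was 7306 bp wide, against a median of 1054 bp over all shared regions, and the part of width in its percentiles was not tested. In regions 8 and 12 fasted replicate 2 was the highest fasted library and fasted replicate 3 the lowest.

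A further group of 4 regions rose about as much as each other, with log2 fold changes of 1.08 to 1.18, differences among them that are smaller than their standard errors. Region 4 (112502103 to 112504035) had densities of 151, 118 and 145 in the fasted libraries, against 75.4, 70.8 and 58.1 in the fed libraries (log2 fold change 1.08, SE 0.14). Region 5 (112506010 to 112507066) had 84.0, 78.3 and 69.0 in the fasted libraries, against 34.9, 32.2 and 38.2 in the fed libraries (log2 fold change 1.18, SE 0.17). In both regions the fasted libraries lay above all fed libraries, by at least 0.77 on the centred log2 scale. Region 6 (112507596 to 112508863) had 56.5, 49.1 and 43.6 in the fasted libraries, against 22.8, 26.6 and 20.8 in the fed libraries (log2 fold change 1.13, SE 0.19). Region 14 (112527919 to 112528885), the last of the locus, had 34.6, 31.4 and 35.4 in the fasted libraries, against 16.9, 17.6 and 12.6 in the fed libraries (log2 fold change 1.14, SE 0.20). These regions again showed no overlap between the groups. The strength of the 4 regions differed widely, with region 4 at percentile 97.1 of the shared regions in fasted livers and region 14 at percentile 64.0.

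The strongest region of the locus in both groups was region 7 (112509911 to 112511003), which rose by less. Its densities were 157, 153 and 164 in the fasted libraries, against 111, 99.7 and 76.2 in the fed libraries, a mean of 158 ± 5.48 in fasted and 95.6 ± 17.8 in fed livers (SD, n = 3 each). The log2 fold change there was 0.81 (SE 0.13). The region stood at percentile 98.2 in fasted livers and 92.6 in fed livers. Region 8, with the greatest difference of the locus, began 340 bp beyond its end. Region 2 (112494054 to 112495223), with 28.4, 24.3 and 26.3 in the fasted libraries against 14.3, 21.4 and 16.7 in the fed libraries, had the least difference of those past the threshold (log2 fold change 0.65, SE 0.21). The groups were only 0.24 apart there on the centred log2 scale. Its call was lost under leaving out any single library other than fed replicate 2, with log2 fold changes of 0.51 to 0.71, and with the replicate number as a block (0.65, SE 0.22).

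**Figure D2:**
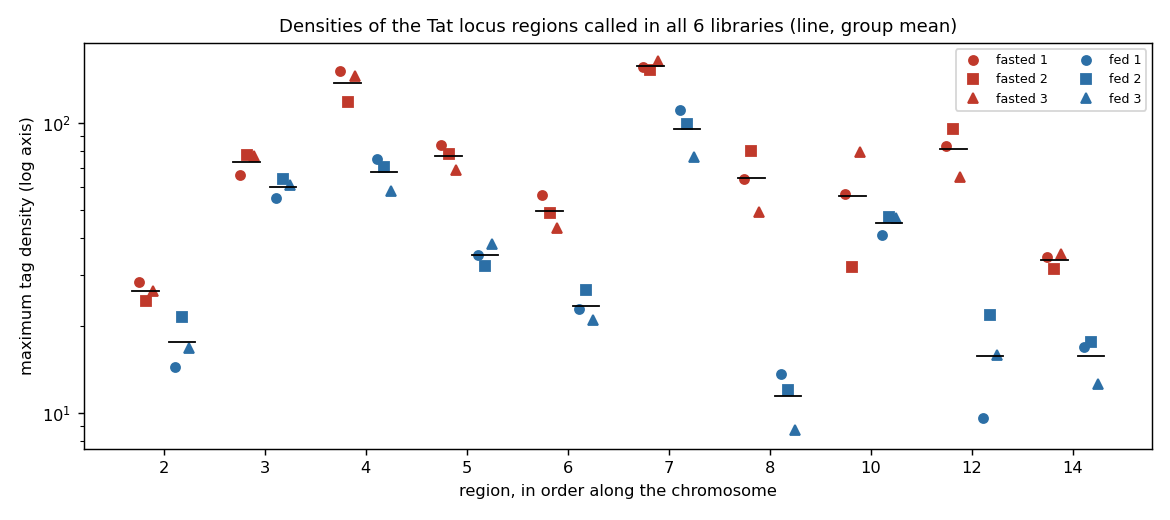
Maximum tag density (log axis) of the 10 regions of the Tat locus called in all 6 libraries, with fasted libraries in red, fed libraries in blue, 1 symbol per replicate and a line at each group mean. Only in region 10 do the points of the groups overlap, with fasted libraries at 32.0 to 79.3 and fed libraries at 41.2 to 47.6.

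The other shared regions did not pass the threshold. Region 3 (112496473 to 112497741) had 66.1, 77.4 and 76.9 in the fasted libraries, against 55.2, 64.1 and 61.3 in the fed libraries, with a log2 fold change of 0.35 (SE 0.16). The groups were separate by only 0.08 on the centred log2 scale, less than the range of either group. Region 10 (112513696 to 112517481) had 57.0, 32.0 and 79.3 in the fasted libraries, against 41.2, 47.6 and 46.9 in the fed libraries, with a log2 fold change of 0.29 (SE 0.21). Fasted replicate 2 was below all fed libraries and fasted replicate 3 above them all, a range of 1.06 on the log2 scale within the fasted group. Without fasted replicate 2 the log2 fold change was 0.58 (SE 0.18) and passed the threshold, and without fasted replicate 3 it was 0.05 (SE 0.21) and did not. Fasted replicate 2, the highest of the fasted libraries in regions 8 and 12, was the lowest of them in region 10. Both regions were of fair strength in fed livers, at percentile 82.3 for region 3 and 73.8 for region 10.

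**Figure D3:**
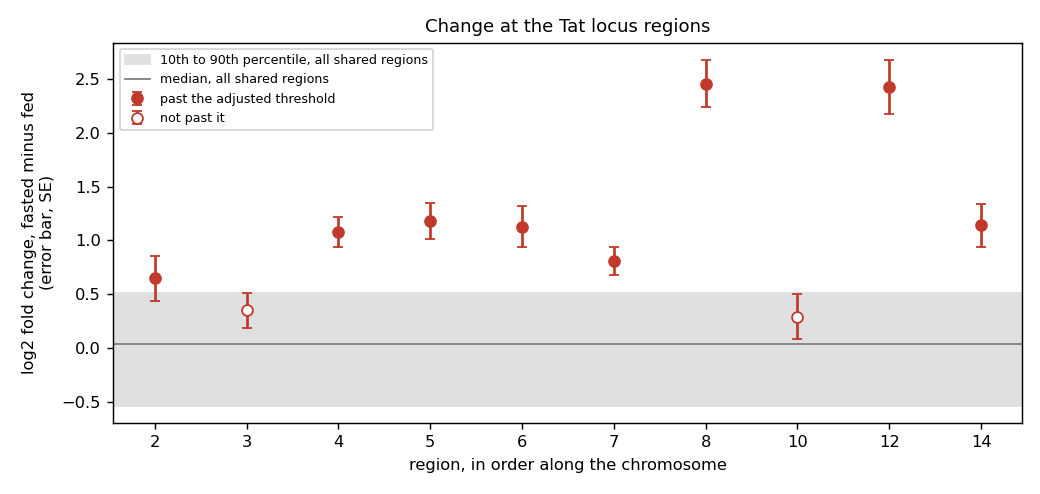
Log2 fold change (fasted minus fed, error bar SE) of the 10 shared regions of the Tat locus, filled where past the adjusted threshold of the fit over all shared regions. The grey band runs over the 10th to 90th percentile of all shared regions (-0.54 to 0.51), and the values of the locus run between 0.29 and 2.46.

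The order of the regions by level differed between the groups. In fasted livers region 7 came first (158 ± 5.48) and region 4 second (138 ± 17.5), with no overlap between their libraries. Regions 12, 5, 3 and 8 followed with means of 81.4 ± 15, 77.1 ± 7.56, 73.4 ± 6.37 and 64.5 ± 15.4 (SD, n = 3 each), and their ranges overlap. Compared within each library, region 12 stood above region 8 in every fasted library. No other pair of these kept the same order in every fasted library. Region 10, with a mean of 56.1 ± 23.7, overlaps in range with regions 12, 5, 3, 8, 6 and 14. Within each fasted library it stood above region 14, but its order against regions 12, 5, 3, 8 and 6 changed between libraries. Region 6 had a mean of 49.7 ± 6.45 and a range that overlaps with that of region 8, though it was below region 8 in every fasted library. Regions 14 and 2 came last at 33.8 ± 2.14 and 26.3 ± 2.05, with no overlap between them. In fed livers the order began with region 7 (95.6 ± 17.8), region 4 (68.1 ± 8.94), region 3 (60.2 ± 4.56) and region 10 (45.2 ± 3.52), of which regions 4 and 3 overlap. Then came regions 5 and 6 at 35.1 ± 3.00 and 23.4 ± 2.94, and last regions 2, 12, 14 and 8 at 17.5 ± 3.57, 15.7 ± 6.09, 15.7 ± 2.72 and 11.4 ± 2.50. Each of these last regions overlaps in range with its neighbours in the order, and regions 2 and 12 also with region 6. Compared within each fed library, regions 2 and 14 always stood above region 8, and region 6 always above regions 2 and 12. In fasted livers only regions 7 and 4 thus had higher means than region 12, which was among the weakest sites of the locus in fed livers.

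Region 12 also differed in how much of it was covered. In the fasted libraries the hotspots covered 6411, 7306 and 5327 bp of it, against 1381, 2290 and 2382 bp in the fed libraries. Most of the fasted cover was thus outside the fed hotspots. In every fasted library hotspots reached down to 112519853 or lower, while the fed hotspots of this region all lay between 112522507 and 112525027. In fasted replicates 1 and 3 this lower part was made of separate weak hotspots, up to 16.5 and 15.4 in density, and the strong values of 83.7 and 65.4 came from the upper hotspots (112521909 to 112525510 and 112521932 to 112525360). Those upper hotspots were 3602 and 3429 bp wide, and the hotspots with the fed maxima were 1381, 1925 and 1464 bp wide in fed replicates 1 to 3. Where the maxima lie within them is not known. Fasted replicate 2 had 1 hotspot over the whole 7306 bp, so where its maximum of 95.1 lies is not known either. Counted base by base over the window, 3.10 kb lay in hotspots of all 3 fasted libraries and of no fed library, and 0.141 kb in hotspots of all 3 fed libraries and of no fasted library. The longest stretch of the first kind was 1539 bp of region 12 (112520362 to 112521900). The same count over all regions of the series is not given here, and the part of library depth in it was not tested. The density of the region was also higher in the fasted libraries, and its part in the cover was not tested.

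Differences in mean width elsewhere in the locus were smaller. Region 10, the next by size of difference, was the 1 shared region with a wider fed mean, with 2250, 3153 and 3030 bp covered in the fasted libraries, against 2647, 3430 and 3769 bp in the fed libraries, and the groups overlapped. In region 8 the hotspots were 850, 960 and 824 bp wide in the fasted libraries, against 648, 542 and 664 bp in the fed libraries, and in region 5 they covered 1005, 1050 and 947 bp in the fasted libraries, against 814, 853 and 837 bp in the fed libraries. The groups did not overlap in width in region 8 or region 5. The share of all shared regions with separate widths is not given here, and the part of depth was not tested. Over all hotspots the median width was 754, 749 and 736 bp in fasted replicates 1 to 3, against 707, 724 and 755 bp in fed replicates 1 to 3. In region 7, the strongest, the widths were 1018, 1080 and 1003 bp in the fasted libraries, against 1011, 981 and 1031 bp in the fed libraries, and the groups overlapped.

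Drawn from the fasted lists, region 10 came apart into 3 parts. The strong part (112513696 to 112514874) set the maximum of the region, with a log2 fold change of 0.30 (SE 0.22) that did not pass. The middle part (112515039 to 112515954) had densities of 11.06, 10.66 and 9.38 in the fasted libraries, against 11.03 and 22.1 in fed replicates 1 and 2. The groups overlapped there, and its log2 fold change of -0.98 (SE 0.35), or -0.46 (SE 0.29) without fed replicate 3, did not pass. The upper part (112516095 to 112517412) had densities of 10.5, 12.8 and 18.2 in the fasted libraries, against 25.0 and 22.1 in fed replicates 1 and 2. Both fed values are above all 3 fasted ones. In fed replicate 3 a single hotspot of 46.9 spanned all 3 parts, so its value in the weaker ones is not known. With that hotspot counted, the upper part was lower in fasted livers past the threshold (log2 fold change -0.99, SE 0.26). Without fed replicate 3 the log2 fold change was -0.66 (SE 0.25) and did not pass. The hotspot of fed replicate 2 spanned the middle and upper parts, so its maximum may lie in either. Region 4 likewise joined 2 sites in 4 libraries, and there the part above 112503003 was the stronger one, with 145 in fasted replicate 3 and 75.4, 70.8 and 58.1 in the fed libraries, beside 19.98 and 14.0, 19.5 and 11.2 for the lower part of the same libraries. Fasted replicates 1 and 2 had 1 hotspot over both.

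**Figure D4:**
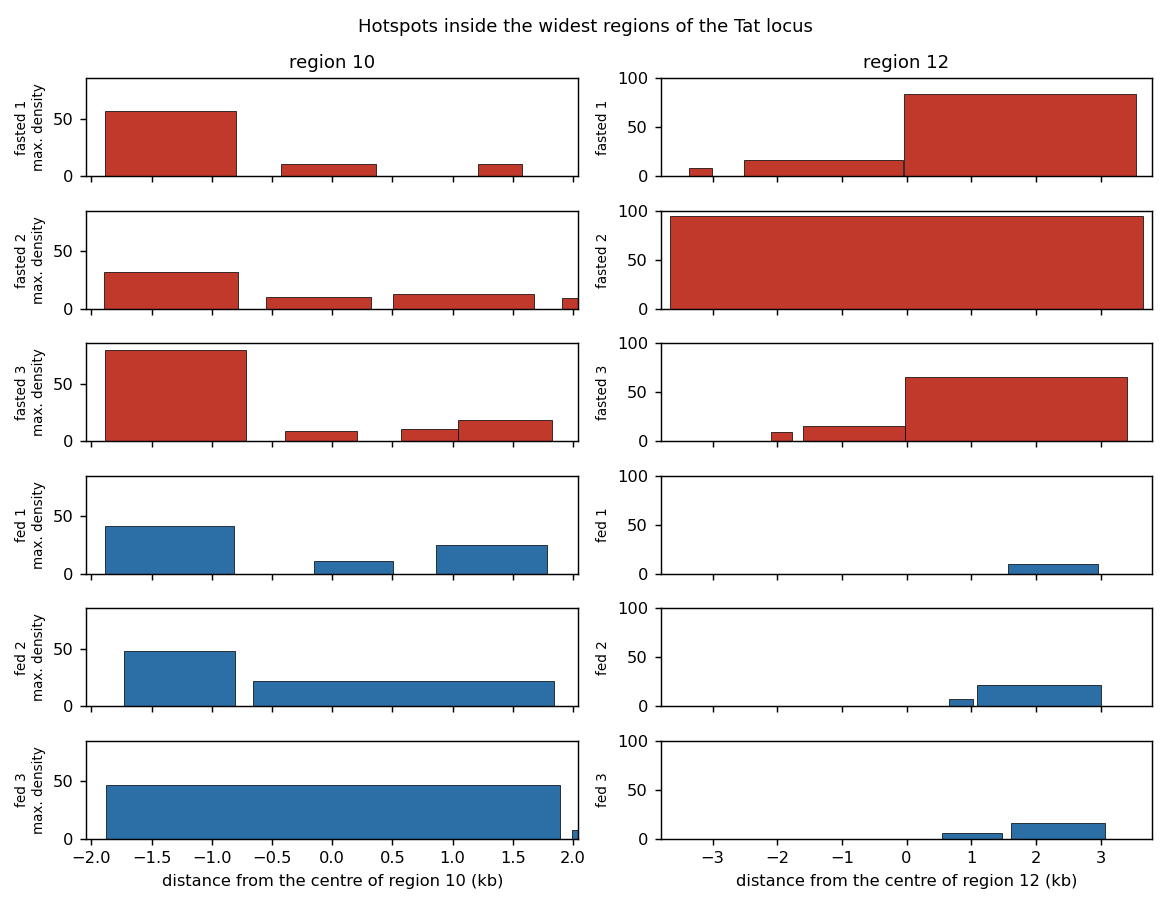
Hotspots inside region 10 (left) and region 12 (right) by library, fasted in red and fed in blue, as maximum tag density against the distance in kb from the centre of each region. Fed replicate 3 has 1 hotspot over region 10, and fasted replicate 2 has 1 over region 12, where the fed hotspots cover 1381 to 2382 bp.

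The remaining 4 regions were called in fewer libraries, and a missing call leaves the density unknown. Region 1 (112492688 to 112493335, density 11.6) and region 9 (112513027 to 112513448, 9.08) were called in fasted replicate 2 only. Region 13 (112527101 to 112527366, 5.95) was called in fed replicate 3 only. Region 11 (112517497 to 112518114) was called in fasted replicate 2 and in fed replicate 3, at 9.08 and 7.78. These calls were all in the deepest library of either group and were 26 to 59 tags high. No region of the locus was called in all libraries of 1 group and none of the other (0 of 14 each way). The share of such regions over the whole series is not given here, so nothing is read from this count.

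The profile of region 8 over the 6 libraries was close to that of most other regions of the locus. Pearson's r with region 8, on centred log2 densities over 6 libraries, was 0.963 for region 4, 0.965 for region 5, 0.975 for region 6, 0.972 for region 7, 0.944 for region 12 and 0.975 for region 14. It was 0.849 for region 2, 0.801 for region 3 and 0.194 for region 10. The points are the same 6 libraries for every region, so the regions share each library's depth, whose part in these values was not tested. The difference between fasted and fed livers, on which the locus was chosen, also enters each r. A high r is therefore no separate evidence that these regions change together. Elsewhere, 1779 regions (4.80% of the shared regions outside the window) also reached 0.9. The 5 closest profiles elsewhere lay on chromosome 15 (88732490 to 88733583, r = 0.9992), chromosome 14 (28023812 to 28025978, 0.9970), chromosome 9 (48090106 to 48091164, 0.9966), chromosome 13 (98297719 to 98298584, 0.9963) and chromosome 10 (124706102 to 124706991, 0.9959). Their log2 fold changes, 0.60 to 1.12, were all smaller than that of region 8. The closest, on chromosome 15, had densities of 91.1, 92.8 and 84.8 in the fasted libraries, against 54.8, 49.8 and 46.2 in the fed libraries.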

How the data were processed

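DNase I hypersensitive sites were mapped in 3 libraries of fasted and 3 libraries of fed mouse liver. Per the labels' protocols, liver nuclei were digested at 40 U/ml of DNase I and fragments of 100 to 500 bp were purified. The submitters' processing notes name CASAVA 1.8 and build mm9; the aligner and the caller are not given in the sources. Per the file headers, each deposited hotspot has a maximum and an average tag density (a coverage signal of unstated scale), a z-score and a p-value. No comparison used the deposited score or p-value; the largest p-value of any hotspot deposited by the authors was 4.5e-13. Lists were called per library.

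Regions were made by merging overlapping hotspots (1 bp; chromosomes 1 to 19 and X), each valued per library at its highest maximum density. Regions called in all 6 libraries were fitted with limma 3.58.1 (R 4.3.3; mean-variance trend, adjusted p under 0.05, pseudocount 1, median centring, no covariate), since densities are not counts. The fit was tested on simulated data. Tables used Python 3.11.15 with pandas 2.3.3 and numpy 2.4.6, and plots matplotlib 3.10.9. Heights of replicates differed by more than counting noise (mean squared z of 2.18 to 5.77), so none was treated as a duplicate. Every region of the window is accounted for. Those with a log2 fold change of at least 1, the strongest, and, chosen after their values were seen, the others have values by library; the 5 regions elsewhere are those of highest correlation with the region of largest fold change. Members, lists and tests were chosen with earlier results of these data known. Genes of tyrosine breakdown other than Tat were not analysed here, since the files and the gene table use different builds.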

Additional observations from a re-analysis of the deposited data

How the results depend on the processing

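Under 19 alternatives and 1 more chosen after seeing the data (regions drawn from the fasted lists, without fed replicate 3), the log2 fold changes of regions 3, 4, 5, 6, 7, 8, 12 and 14 kept their direction and side of the threshold. Region 8 ranged from 1.84 to 2.70 and region 12 from 1.90 to 2.70. Region 2 ranged from 0.46 to 0.81 over 19 alternatives, lost its call under 9 of them (0.51 to 0.73) and was absent from the upper 50% of regions by density. Region 10 passed without fasted replicate 2 (0.58) and stood at 0.05 without fasted replicate 3. Its largest part as drawn from the fasted lists turned to -0.99, and to -0.66 without fed replicate 3, and in fed replicate 3 that part took the value of a hotspot spanning the whole region. With fed replicate 3, 1 part of the locus was lower in place of 0. Leaving out each replicate gave 7 to 8 higher and 0 lower regions of the locus. Over all shared regions it gave 1976 to 3212 higher and 2021 to 2738 lower. The 2921 higher regions became 1946 with no centring and 1401 (lower: 1540) in the upper 50%, where fewer regions were tested. With no centring 3189 were lower. With the replicate number as a block, 7 regions of the locus were higher and 0 lower, and 2535 and 2539 of all shared regions. The call lost was region 2 (0.65). Deviations of libraries with the same number correlated at -0.067, -0.03 and -0.17, and those with different numbers at -0.067 to 0.14. So few pairs cannot show whether libraries of the same number share more than a number. If 1 step is 1 tag, the counting error in the shared regions of the locus was 19.6% at the lowest height and 3.59% at the highest. The part of depth in the changes between settings was not tested.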
